A study of Mus musculus with 12 samples.

Results

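The small leucine-rich proteoglycans are a family of matrix proteins of bone, tendon and cartilage, and 10 of their genes were followed here in the skull bone of newborn mice: Dcn, Bgn, Aspn, Fmod, Lum, Omd, Kera, Prelp, Epyc and Ogn. The genes were chosen by family membership, with epiphycan (Epyc) and the changes of the family in both mutants of the study already in view. They are 10 of the 23715 genes in the deposited RNA-seq tables, and all 10 passed the filter on low values that left 13059 genes (1 FPKM or more in 3 or more of the 12 mice, where FPKM is the number of fragments of a transcript relative to its length and to the depth of the library). Because the selection used them, the changes of these genes in each mutant and the difference between those changes are described below with their errors and without p-values. All other gene lists below were also chosen with earlier results of these data known. Their adjusted p-values are thus a description and no independent test.

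The study compared 4 groups of 3 C57BL/6 mice. P-KO mice carry Med23, a subunit of the Mediator complex that links transcription factors to RNA polymerase II, in a floxed form that is deleted by Prx1-Cre (Med23 fl/fl;Prx1-Cre), and P-Ctrl mice are their littermates, labelled WT and described in the methods as Med23 fl/fl controls. R-Het mice are Runx2+/-, with 1 working copy of the master transcription factor of osteoblasts, and R-WT mice are their wild-type controls. The tissue is calvaria of newborns by the labels, and parietal bone of mice at postnatal day 2 by the methods. Prx1-Cre acts in mesenchyme of the limb and of part of the head, so cells outside that lineage keep Med23. The RNA came from whole tissue, in which fewer cells of a type and less RNA per cell cannot be told apart.

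The deposited values did not show the lesions themselves. Med23 stood at 5.32 ± 0.732 FPKM (SD, n = 3) in P-Ctrl and 5.30 ± 0.425 FPKM in P-KO mice (limma, adjusted p = 0.997), and Runx2 had a log2 change of 0.09 in R-Het against R-WT mice (SE 0.13, adjusted p = 0.796). A sum over transcripts need not show the loss of a few exons, but the libraries are therefore known as mutant only by their labels. Depth, estimated from the smallest values, was between 7760000 and 11750000 fragments per mouse. By Xist, 3 control libraries were female and all 6 mutant libraries male. Bone was present by its markers: 11 osteoblast genes summed to 29504 to 35213 FPKM in the control mice, whereas the epidermal keratins Krt5, Krt14 and Krt1 stayed under 1 FPKM in every mouse.

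Small leucine-rich proteoglycans have a short protein core built of leucine-rich repeats, which lies along collagen fibrils and limits their width and spacing. Many carry chains of chondroitin, dermatan or keratan sulfate. Decorin, biglycan and asporin form class I of the family, fibromodulin, lumican, osteomodulin, keratocan and PRELP form class II, and epiphycan and osteoglycin belong to class III. Several members also bind growth factors of the TGF-beta and BMP families. In bone, biglycan, decorin and osteomodulin are known products of osteoblasts and their precursors, whereas epiphycan is best known from epiphyseal cartilage and keratocan from the cornea.

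Most of these genes lie side by side (GRCm38 coordinates). On chromosome 10, Dcn (chr10:97479500-97518163), Lum (chr10:97565501-97572703), Kera (chr10:97606962-97613688) and Epyc (chr10:97644068-97681908) follow each other within 202.4 kb, with gaps of 47.3, 34.3 and 30.4 kb. On chromosome 13, Ecm2, a related gene outside the chosen set, is followed by Aspn (chr13:49544443-49567565), Omd (chr13:49582462-49592612) and Ogn (chr13:49608015-49624501) within 119.7 kb. On chromosome 1, Prelp (chr1:133910304-133930102) and Fmod (chr1:134037254-134048280) are 107.2 kb apart, and Bgn (chrX:73483601-73495936) is on the X chromosome.

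Since 1 of the mutants concerns a RUNX factor, the 250 bases before the start that the RefSeq promoter table lists for each member were searched for the RUNX core TGTGGT on both strands (ACCACA on the other). The table (GRCm38.p6) held 8 of the 10 members, without Dcn and Lum, and its starts for Kera and Prelp lie inside the gene spans given above. For Epyc it lists 2 promoters, and the start of the second (chr10:97646853-97647102) also lies inside the gene span. The core was found in 1 of these 8, Ogn, where ACCACA begins 65 bases before the start. Of all 32851 promoters of the table, 14.05% hold it. The promoter of Ogn, which holds the match, is shown beside the first one listed for Epyc. Epyc was the member that differed most in the Runx2 set, and neither of its 2 promoters holds the core. The core is in capitals and everything else in lower case. Both windows are on the plus strand, at chr13:49607765-49608014 and chr10:97643818-97644067.
Ogn: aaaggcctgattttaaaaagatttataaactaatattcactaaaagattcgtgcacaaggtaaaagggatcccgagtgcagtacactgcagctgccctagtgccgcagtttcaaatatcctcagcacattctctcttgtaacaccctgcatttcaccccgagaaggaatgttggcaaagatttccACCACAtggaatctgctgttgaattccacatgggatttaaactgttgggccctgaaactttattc
Epyc: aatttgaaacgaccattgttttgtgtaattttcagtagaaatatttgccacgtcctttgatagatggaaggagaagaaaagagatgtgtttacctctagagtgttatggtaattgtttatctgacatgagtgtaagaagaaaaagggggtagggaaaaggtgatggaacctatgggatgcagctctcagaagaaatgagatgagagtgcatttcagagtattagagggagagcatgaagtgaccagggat
The match describes these letters in this window and says nothing of binding.

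The members differed widely in level. FPKM is per length, so levels can be compared between genes. In P-Ctrl mice Lum was highest (1630.3 ± 124 FPKM, SD, n = 3), followed by Dcn (1539.7 ± 177), Bgn (1153 ± 97.97) and Aspn (745 ± 108). Ogn (347 ± 44.6), Omd (253 ± 15.97) and Fmod (150.1 ± 50.04) were intermediate, and Prelp (16.9 ± 3.15), Epyc (5.62 ± 0.212) and Kera (1.71 ± 0.639) were low. In this group only the neighbours Lum and Dcn overlapped between mice. In R-Het mice the order differed in places, with Aspn (1423 ± 233 FPKM) above Bgn (1328 ± 62.7 FPKM), although their mice overlapped, and Epyc (25.7 ± 2.67 FPKM) above Prelp (19.3 ± 2.25 FPKM) without overlap. In R-WT mice Kera and Epyc were at the bottom together (7.77 ± 3.96 and 7.69 ± 1.13 FPKM), and Kera there also overlapped Prelp.

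**Figure D1:**
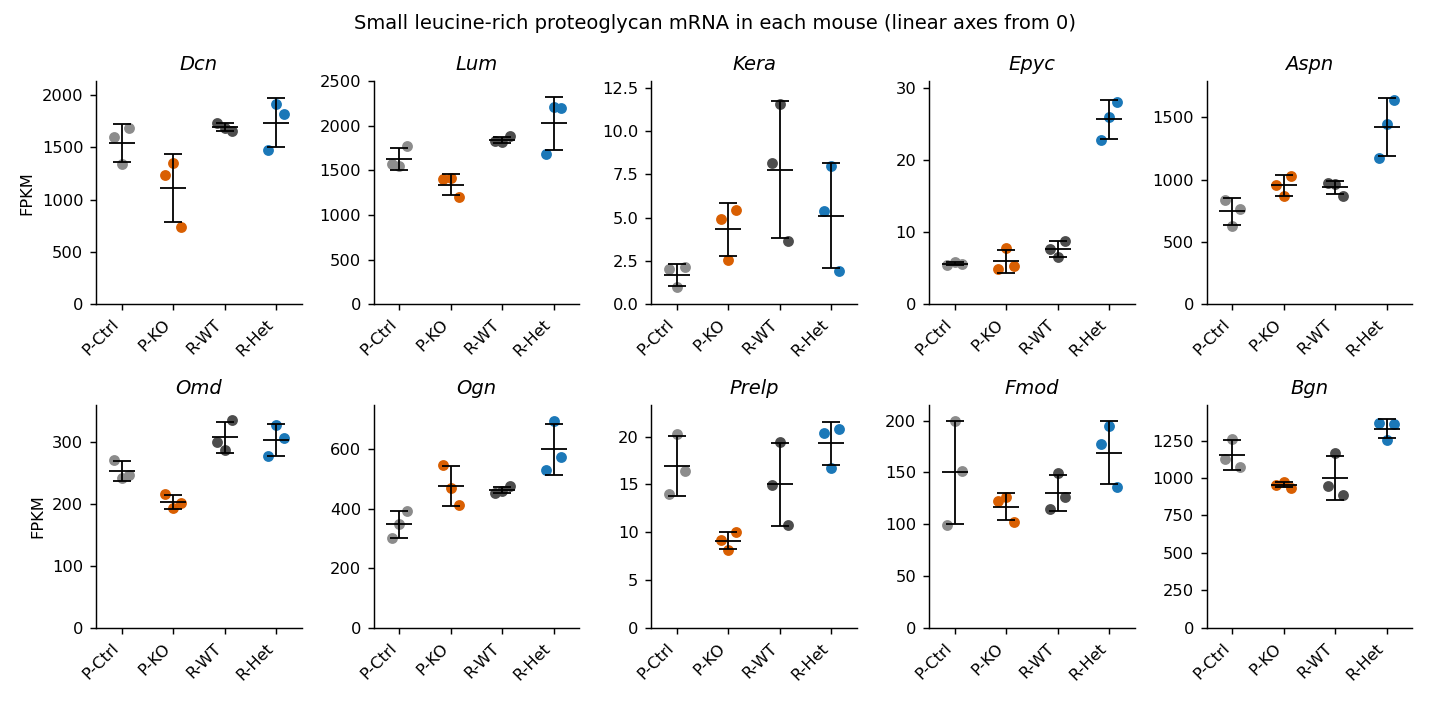
FPKM of each of the 10 genes (vertical axes, linear and starting at 0) in the 4 groups, with 1 point for each of 3 mice, a bar at the mean and whiskers of 1 SD. Epyc in R-Het mice (22.8 to 28.1 FPKM) stands above all other mice (at most 8.80 FPKM), and Prelp in P-KO mice (at most 10.04 FPKM) stands below all P-Ctrl mice.

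On the deposited scaling the 10 genes together summed to 5843 ± 257 FPKM in P-Ctrl, 5169.9 ± 455 in P-KO, 6404 ± 159.6 in R-WT and 7635 ± 779 in R-Het mice. Every P-KO mouse had a lower sum than every P-Ctrl mouse (at most 5445 against at least 5592 FPKM), and every R-Het mouse had a higher sum than every R-WT mouse (at least 6735 against at most 6575 FPKM). The make-up moved as well. Aspn took 12.7 ± 1.596% of the sum in P-Ctrl and 18.6 ± 3.21% in P-KO mice, and 14.6 ± 0.652% in R-WT and 18.6 ± 1.54% in R-Het mice. Dcn held 26.3 ± 2.02% in P-Ctrl and 21.1 ± 4.705% in P-KO mice, with overlap between the mice. In the Runx2 set it held 26.4 ± 0.764% in R-WT and 22.7 ± 0.95% in R-Het mice, without overlap.

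**Figure D2:**
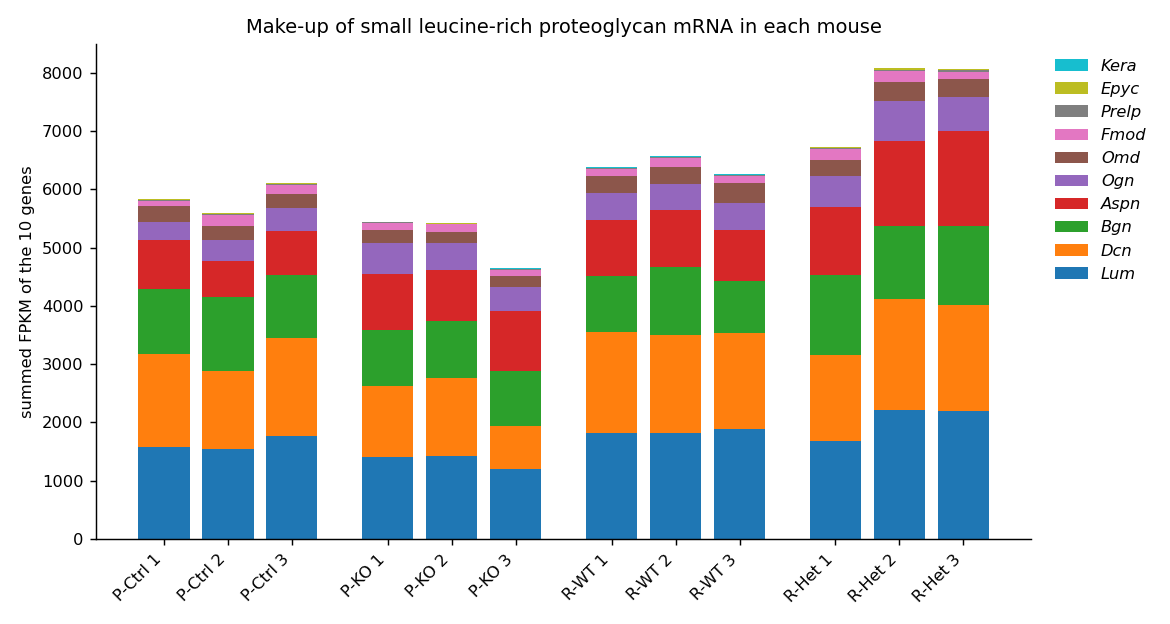
Summed FPKM of the 10 genes (vertical axis) in each of the 12 mice, stacked by gene. Sums lie between 4645 and 5445 FPKM in P-KO mice and between 6735 and 8093 FPKM in R-Het mice, and Lum, Dcn, Bgn and Aspn form most of each bar.

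In the Med23 set 6 of the 10 genes were lower and 4 higher in P-KO than in P-Ctrl mice, with a median log2 change of -0.28 against 0.06 over all genes tested. One of the 4, Epyc, moved from 0.05 to -0.01 when each mouse was rescaled to the same 75th percentile, and no other member turned. The mice of both groups did not overlap for 7 of the 10 genes (4 lower, 3 higher), where 27.3% of all genes tested did not overlap. By limma with Benjamini-Hochberg adjustment at 0.05, 1 of the 10 was called, Prelp, where 1.57% of all genes were called (205, of which 73 lower and 132 higher, or 84 lower and 66 higher after rescaling). In the Runx2 set 8 of the 10 genes were higher and 2 lower in R-Het than in R-WT mice, with a median of 0.37 against 0.02 over all genes. The groups did not overlap for 4 genes, all higher, beside 21.1% of all genes tested, and 1 of the 10 was called, Epyc, beside 1.89% of all genes (247). Since the family was chosen with both comparisons in view, these counts are given as a description only.

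**Figure D3:**
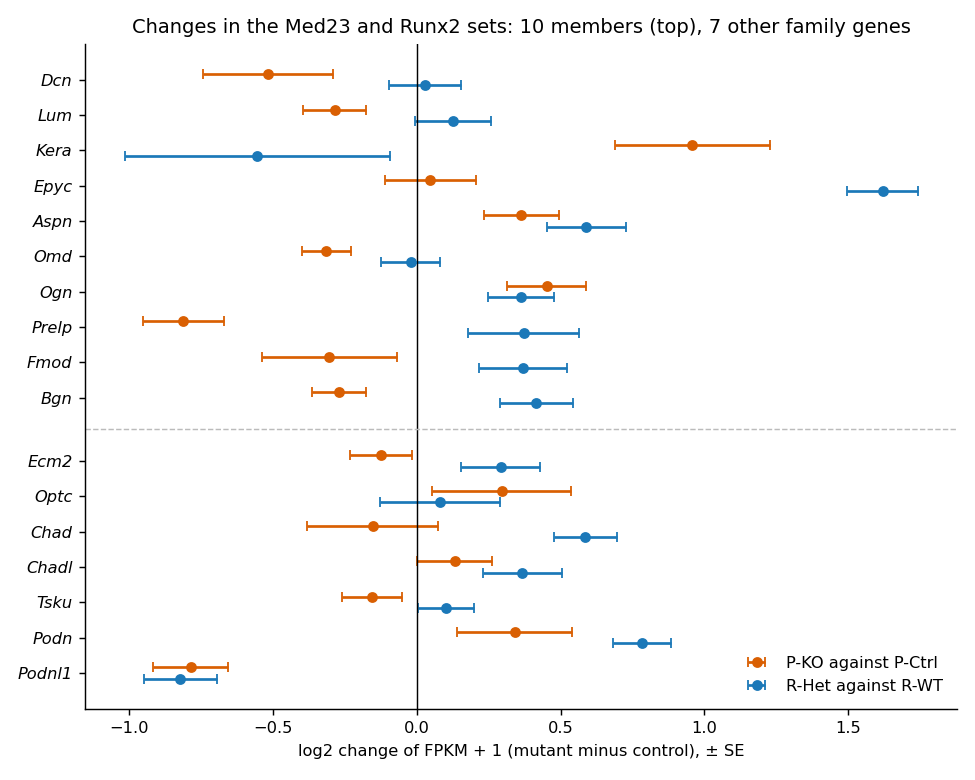
Log2 change of FPKM + 1 between mutant and control mice (horizontal axis) with 1 SE, for the 10 members above the dashed line and 7 other family genes below it, in the Med23 set (orange) and the Runx2 set (blue), 3 mice a group. Epyc lies at 0.05 in the Med23 set and 1.62 in the Runx2 set, and Podnl1 lies near -0.8 in both.

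Epyc, which encodes epiphycan, differed between the sets. It measured 5.43, 5.85 and 5.59 FPKM in the P-Ctrl mice and 4.84, 7.77 and 5.25 FPKM in the P-KO mice. In the R-WT mice it measured 7.73, 6.55 and 8.802 FPKM, and in the R-Het mice 22.8, 25.97 and 28.1 FPKM. All R-Het mice were thus above every other mouse of the study, while P-KO and P-Ctrl mice overlapped. The ratio of means was 3.33 in the Runx2 set, a log2 change of 1.62 (SE 0.12), and leaving out 1 mouse at a time kept it at 1.52 to 1.71. Only 14 of the 13059 genes had a higher log2 change in that set. The change was 0.05 (SE 0.16) in the Med23 set, and the difference of both changes was 1.57 (SE 0.21). That of Kera was of similar size and opposite sign (-1.51), and with a pseudocount of 0.1 the differences were 1.68 for Epyc and -1.96 for Kera. In the fit of that difference 1 of the 10 members was called, Epyc, beside 0.153% of all genes (20), a call lost without P-Ctrl mouse 2 or 3, P-KO mouse 1, R-WT mouse 3 or R-Het mouse 1 or 3. About 71 to 157 fragments per mouse lay behind the value in the other groups and 376 to 403 in R-Het mice.

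Epiphycan is known from cartilage, and cartilage markers were read beside it. The 14 markers (Col2a1, Acan, Sox9 and others) summed to 155.2 to 196.4 FPKM in R-WT and 172.0 to 266.6 FPKM in R-Het mice, which overlap. Of the 14, 12 had a log2 change above 0 in R-Het mice, with a median of 0.49, and 0 were called by limma. In P-KO mice the sum was lower, 115.02 to 151.2 FPKM against 189.2 to 228.4 FPKM in P-Ctrl. The markers did not all fall there: the median log2 change was -0.43, and 5 of the 14 were above 0, among them Acan (0.50) and Sox9 (0.22). By limma 1 of the 14 was called, Col2a1, the chain of cartilage collagen (log2 change -0.86, SE 0.14, adjusted p = 0.0404). This call was lost when any 1 mouse was left out and in the fits of all 12 mice (adjusted p = 0.133, and 0.129 with sex as a covariate). Epyc stood at 0.05 in that set. Skeletal muscle differed far more: its 10 markers summed to 2139 to 6387 FPKM in R-WT and 30.9 to 208.8 FPKM in R-Het mice, and 9 of the 10 were called lower (median log2 change -4.76; 2 called without R-WT mouse 1 and 4 without R-WT mouse 3). In the fit of all 12 mice 0 of the 10 were called, and 4 with sex as a covariate in it. The muscle sum also ranged from 26.3 to 1549 FPKM among P-Ctrl mice, in which Epyc stayed between 5.43 and 5.85 FPKM. The part of muscle content, and of the male sex of the R-Het libraries, in the Epyc value was not tested beyond a covariate for sex, with which the log2 change was 1.63.

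**Figure D4:**
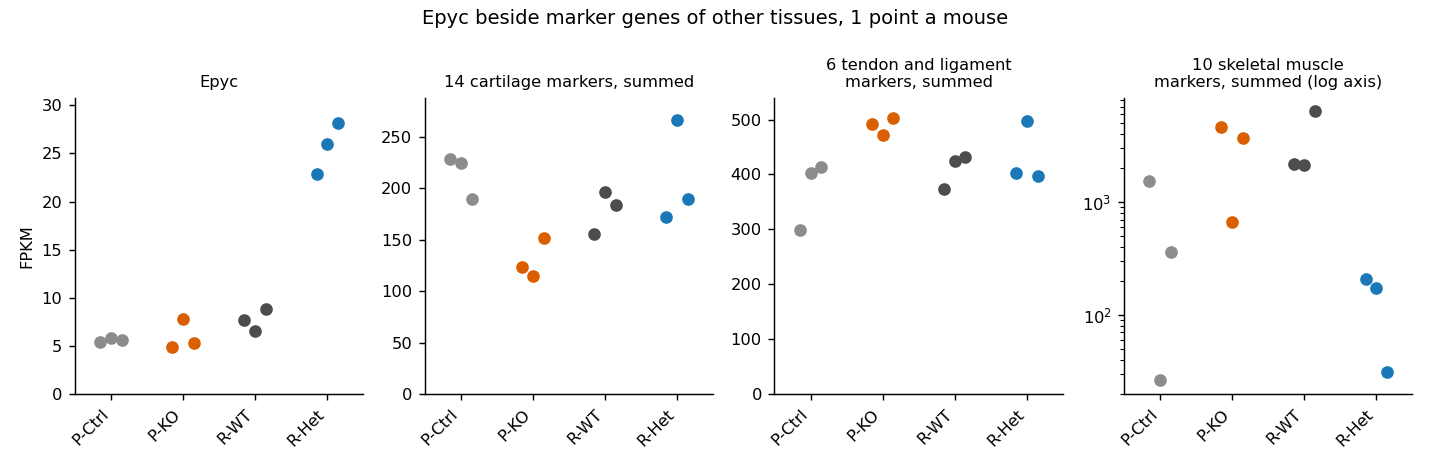
Epyc and the summed FPKM of 14 cartilage, 6 tendon and ligament and 10 skeletal muscle markers (vertical axes in FPKM, the last one logarithmic) in the 4 groups, with 1 point a mouse. Epyc is high in the 3 R-Het mice, the cartilage sums of R-WT and R-Het mice overlap, and muscle is low in R-Het mice (30.9 to 208.8 FPKM) and in 1 P-Ctrl mouse (26.3 FPKM).

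Ogn, the other class III member, encodes osteoglycin, a small proteoglycan of bone and other connective tissue. It measured 302, 349 and 391 FPKM in P-Ctrl and 545, 471 and 412 FPKM in P-KO mice, and 454, 459 and 475 FPKM in R-WT and 531, 693 and 572 FPKM in R-Het mice. The mutant mice were above their controls without overlap in both sets, with log2 changes of 0.45 (SE 0.14) and 0.36 (SE 0.12). The difference of these was -0.09 (SE 0.18).

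Among the class I genes, Dcn encodes decorin, which binds collagen and TGF-beta. It measured 1599.7, 1341 and 1679 FPKM in P-Ctrl and 1232, 1351 and 738 FPKM in P-KO mice. The groups overlapped, and the third P-KO mouse was the lowest of the study. The log2 change of -0.52 (SE 0.23) was smallest in size without that mouse, at -0.25, in a range of -0.68 to -0.25. In R-WT mice Dcn measured 1730.1, 1683 and 1655 FPKM and in R-Het mice 1469, 1917 and 1815 FPKM, a log2 change of 0.03 (SE 0.13) with overlap.

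Bgn, which encodes biglycan and lies on the X chromosome, went opposite ways in the mutants. It measured 1126, 1261 and 1071 FPKM in P-Ctrl and 955, 970.4 and 937 FPKM in P-KO mice, all of which were lower. It measured 950.1, 1168 and 887 FPKM in R-WT and 1369.5, 1256 and 1359.6 FPKM in R-Het mice, all of which were higher. The log2 changes were -0.27 (SE 0.09) and 0.42 (SE 0.13), and their difference was 0.69 (SE 0.15). With the sex of the library as a covariate they were -0.29 and 0.41.

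Aspn encodes asporin, a class I member that restrains TGF-beta and BMP signals and carries no sulfated chain. It measured 840.0, 628 and 768 FPKM in P-Ctrl and 956, 872 and 1033 FPKM in P-KO mice, and 973, 967 and 873 FPKM in R-WT and 1177, 1448 and 1642 FPKM in R-Het mice. The mutants were higher than their controls in both sets without overlap, by 0.36 (SE 0.13) and 0.59 (SE 0.14) on the log2 scale. The second value is a ratio of means of 1.52.

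The class II genes include the keratan sulfate proteoglycans of fibrils. Lum, for lumican, measured 1572, 1546 and 1773 FPKM in P-Ctrl and 1399, 1417 and 1201 FPKM in P-KO mice, which were all lower. It overlapped between R-WT (1825, 1823 and 1884 FPKM) and R-Het mice (1686, 2206 and 2195 FPKM). Its log2 changes were -0.29 (SE 0.11) and 0.13 (SE 0.13). Fmod, for fibromodulin, which shares a collagen binding site with lumican, overlapped in both sets. Its levels were 99.3, 199 and 151 FPKM in P-Ctrl and 122, 127 and 102 FPKM in P-KO mice, and 115, 149 and 126 FPKM in R-WT and 177, 195 and 136 FPKM in R-Het mice. The changes were -0.30 (SE 0.23) and 0.37 (SE 0.15), with ranges of -0.57 to -0.07 and 0.26 to 0.52 when 1 mouse was left out. The change in the Med23 set was small beside the spread of P-Ctrl mice alone, which ranged from 99.3 to 199 FPKM. R-WT mice, the controls of the Runx2 set, ranged from 115 to 149 FPKM.

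Omd, for osteomodulin, a keratan sulfate proteoglycan of mineralised matrix, measured 271, 241 and 247 FPKM in P-Ctrl and 215, 194 and 201 FPKM in P-KO mice. All P-KO mice were lower, with a log2 change of -0.31 (SE 0.09). In the Runx2 set it measured 300.1, 288 and 336 FPKM in R-WT and 277, 328 and 306 FPKM in R-Het mice and overlapped, with a change of -0.02 (SE 0.10). The lower Omd in P-KO mice came with lower osteoblast markers: their sum was 13399 to 20212 FPKM in P-KO against 30873 to 35213 FPKM in P-Ctrl mice, and 2 of the 11 were called, the osteocalcin genes Bglap (log2 change -1.95, SE 0.32, adjusted p = 0.0401) and Bglap2 (log2 change -1.77, SE 0.26, adjusted p = 0.0327). The Bglap call was lost without any 1 mouse and that of Bglap2 without each mouse other than P-KO mouse 3. Both were also lost in a fit of all 12 mice with sex as a covariate (adjusted p = 0.152 for Bglap and 0.1004 for Bglap2), though not in that fit without it. In R-Het mice the sum was also lower (17202 to 25941 against 29504 to 33595 FPKM in R-WT) while Omd overlapped, and 0 of the 11 were called. The markers did not all fall there: 4 of the 11 had a log2 change above 0, with a median of -0.17. In P-KO mice 0 of the 11 were above 0, with a median of -0.42. The part of osteoblast content in the values of Omd was not tested.

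Prelp encodes a protein with a basic end that binds heparan sulfate and anchors basement membranes to collagen. It measured 14.03, 20.3 and 16.4 FPKM in P-Ctrl and 9.15, 8.19 and 10.04 FPKM in P-KO mice, all lower, with a log2 change of -0.81 (SE 0.14) and a range of -0.93 to -0.68 with 1 mouse left out. The call of Prelp given above was lost without any 1 mouse. It was kept in a fit of all 12 mice and lost when the sex of the library was added to that fit, where the log2 change was -0.68; in this set all P-KO libraries were male. Only 121 of the 13059 genes had a lower change in that set. It overlapped between R-WT (14.9, 19.4 and 10.8 FPKM) and R-Het mice (20.4, 16.7 and 20.8 FPKM), at 0.37 (SE 0.19) and a range of 0.17 to 0.56 with 1 mouse left out. The difference of both changes was 1.18 (SE 0.26).

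Kera, for keratocan, was the lowest member in 3 of the 4 groups and the most variable in each, by SD relative to the mean. It measured 2.01, 0.971 and 2.14 FPKM in P-Ctrl and 4.93, 2.58 and 5.42 FPKM in P-KO mice, and 8.12, 11.5 and 3.65 FPKM in R-WT and 5.36, 7.98 and 1.94 FPKM in R-Het mice. P-KO mice were all higher than P-Ctrl mice, with a change of 0.96 (SE 0.27) and a range of 0.75 to 1.22 with 1 mouse left out. The groups of the Runx2 set overlapped, at -0.55 (SE 0.46) and a range of -0.96 to -0.10. These values rest on an estimated 25 to 245 fragments per mouse, and the Med23 change moved from 0.96 to 1.29 with a pseudocount of 0.1.

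Neighbouring genes did not all share a direction. On chromosome 10 the log2 changes in the Runx2 set were 0.03 for Dcn, 0.13 for Lum, -0.55 for Kera and 1.62 for Epyc. In the Med23 set they were -0.52, -0.29, 0.96 and 0.05 in the same order. Dcn and Lum were both lower in the Med23 set, Dcn with overlap. In the Runx2 set Dcn lay near 0 (SE 0.13, -0.05 to 0.14 with 1 mouse left out), so its sign there was not settled. Kera and Epyc had opposite signs in the Runx2 set, but the mice overlapped for Kera (SE 0.46). Fmod and Prelp, both on chromosome 1, had the same sign as each other in both sets (-0.30 and -0.81 in the Med23 set, 0.37 and 0.37 in the Runx2 set). Mice overlapped for Fmod in both sets and for Prelp in the Runx2 set. On chromosome 13 Aspn and Ogn were higher in P-KO mice while Omd, which lies between them, was lower. Within a mouse, Ogn was 1.38 ± 0.241 times Omd in P-Ctrl and 2.34 ± 0.255 times in P-KO mice, and 1.51 ± 0.091 times in R-WT and 1.97 ± 0.131 times in R-Het mice, without overlap in either set. Aspn was 2.93 ± 0.287 and 4.69 ± 0.381 times Omd in P-Ctrl and P-KO mice, and 3.07 ± 0.408 and 4.68 ± 0.605 times in R-WT and R-Het mice. Such ratios inside a library do not depend on its scaling.

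**Figure D5:**
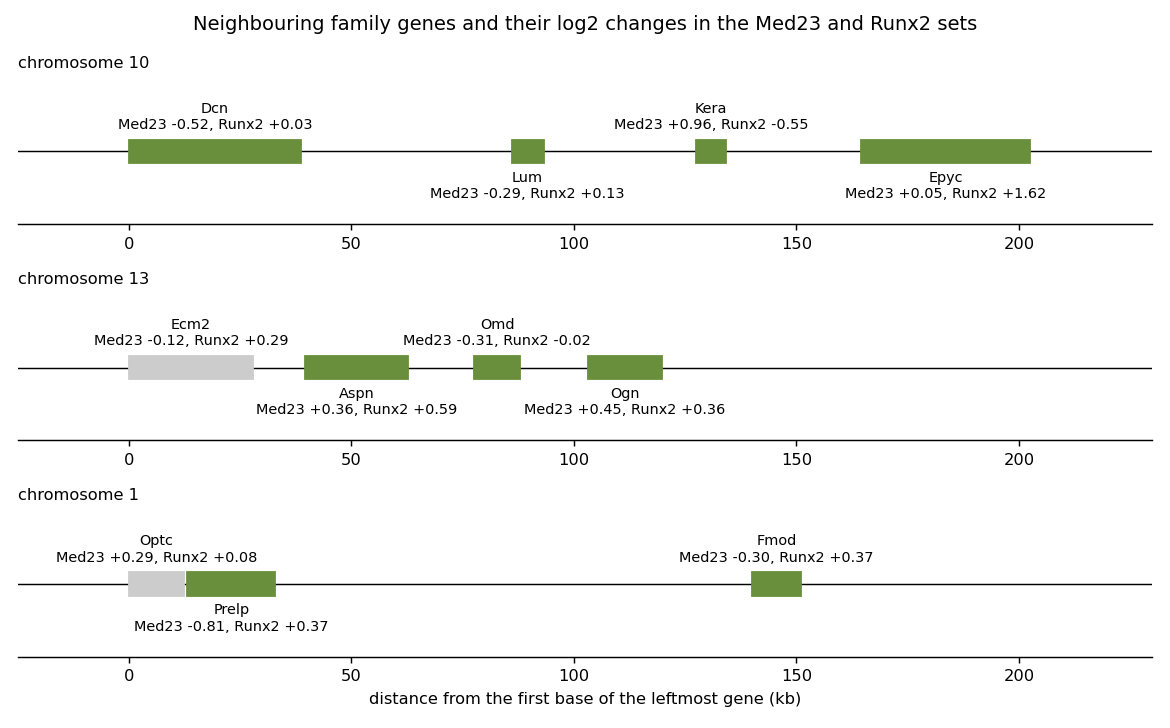
Members (green) and 2 related genes (grey) along chromosomes 10, 13 and 1, with the distance in kb from the first base of the leftmost gene on the horizontal axis and the log2 change of each gene in the Med23 and Runx2 sets written beside it. Epyc differs from its neighbours in the Runx2 set (1.62 against 0.03, 0.13 and -0.55), and Omd lies between 2 genes that were higher in P-KO mice.

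The control groups of both crosses were also compared with each other. This contrast was not among those that chose the genes, but both groups entered the changes that did, so its p-values are not independent of the choice. None of the 10 members was called between R-WT and P-Ctrl mice (limma, adjusted p at least 0.314), where 0.0383% of all genes were (5, with 1232 at an unadjusted p under 0.05). Kera had the largest difference (log2 1.61, SE 0.35, adjusted p = 0.314), followed by Ogn (log2 0.42, SE 0.11, adjusted p = 0.359) and Epyc (log2 0.39, SE 0.11, adjusted p = 0.395). The mice did not overlap for 6 of the 10 members, all higher in R-WT, beside 14.7% of all genes tested. Cross, litter and handling cannot be told apart in this comparison.

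The 8 other listed genes of the family (Ecm2, Optc, Chad, Chadl, Nyx, Tsku, Podn and Podnl1) all passed the filter except Nyx. This list too was made with earlier results of these data known, so its adjusted p-values are given as a description. Podnl1, podocan-like 1, fell in both sets by limma: from 17.1 ± 2.56 to 9.46 ± 1.04 FPKM in the Med23 set (log2 change -0.79, SE 0.13, adjusted p = 0.0412) and from 13.8 ± 1.46 to 7.41 ± 1.22 FPKM in the Runx2 set (log2 change -0.82, SE 0.13, adjusted p = 0.0261). Podn, for podocan, a member known from smooth muscle, rose in R-Het mice from 6.85 ± 0.473 to 12.5 ± 1.28 FPKM (log2 change 0.78, SE 0.10, adjusted p = 0.0174), as did Chad, for the cartilage protein chondroadherin, from 18.5 ± 1.45 to 28.4 ± 3.57 FPKM (log2 change 0.59, SE 0.11, adjusted p = 0.0456). In P-KO mice Podn had a log2 change of 0.34 (adjusted p = 0.372) and Chad of -0.15 (adjusted p = 0.74). The difference between the sets was not called for Podn (0.44, SE 0.24, adjusted p = 0.412), Chad (0.74, SE 0.28, adjusted p = 0.229) or Podnl1 (-0.04, SE 0.19, adjusted p = 0.956). Ecm2, Optc, Chadl and Tsku were called in neither set, with log2 changes of -0.12, 0.29, 0.13 and -0.16 in P-KO and 0.29, 0.08, 0.37 and 0.10 in R-Het mice. These calls lay near the threshold: those of Podnl1 in P-KO and of Chad were lost without any 1 mouse, that of Podnl1 in R-Het mice without each mouse other than R-Het mouse 1, and that of Podn without R-WT mouse 1 or R-Het mouse 1 (adjusted p between 0.0592 and 0.18 in these fits). In a fit of all 12 mice Podn and Chad were not called either without sex as a covariate (adjusted p = 0.0629 and 0.181) or with it (adjusted p = 0.0634 and 0.274).

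The genes that build the sulfated chains or form the fibrils around these proteins were read as lists. For chondroitin and dermatan sulfate synthesis 0 of 21 tested genes were called in either set. Of these genes 17 had a change above 0 in P-KO and 19 in R-Het mice, with medians of 0.14 and 0.20 against 0.06 and 0.02 over all genes, of which 61.3% and 56.1% were above 0. For keratan sulfate synthesis 0 of 8 were called in either set, with medians of -0.05 and 0.05. Among 18 genes of fibrillar collagens and their partners, 2 were above 0 in P-KO mice (median -0.20) and 17 in R-Het mice (median 0.25). In P-KO mice Lox, the enzyme that cross-links collagen, was called higher (log2 change 0.58, SE 0.09, adjusted p = 0.0388) and Col2a1 lower, as given above, and both calls were lost without any 1 mouse. That of Lox was also lost in the fit of all 12 mice with sex as a covariate (adjusted p = 0.0597). In R-Het mice 0 of the 18 were called. Of 9 proteases that cut the family's proteins, 1 was called, Mmp13, collagenase 3, which fell in R-Het mice from 1548 ± 249 to 377 ± 79.05 FPKM (log2 change -2.04, SE 0.18, adjusted p = 0.0054), and 0 of 16 growth factors and receptors that the family binds were called in either set.

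Other cell types were checked by markers. The 6 tendon and ligament markers summed to 299.2 to 414.2 FPKM in P-Ctrl, 471.8 to 503.6 in P-KO, 373.7 to 432.2 in R-WT and 398.1 to 496.8 in R-Het mice, with 0 of 6 called. Of 10 fibroblast and meningeal markers, Aldh1a2 was called higher in P-KO (log2 change 0.99, SE 0.10, adjusted p = 0.0211) and Twist2 in R-Het mice (log2 change 0.59, SE 0.10, adjusted p = 0.0309). Of 3 endothelial markers Pecam1 was called lower in R-Het mice (log2 change -0.57, SE 0.08, adjusted p = 0.0184). Of these calls, that of Twist2 was lost without any 1 mouse, that of Aldh1a2 without each mouse other than P-Ctrl mouse 1, and that of Pecam1 without R-WT mouse 1, R-WT mouse 3 or R-Het mouse 1. The 5 erythroid genes summed to 15698 to 21382 FPKM in P-Ctrl and 8655 to 14402 in P-KO mice, and to 18352 to 20974 in R-WT and 4776 to 19273 in R-Het mice, with 0 called. The higher tendon sum in P-KO mice stood beside higher Ogn, Aspn and Kera and beside lower mean Dcn, Bgn, Fmod, Lum, Omd and Prelp. In R-Het mice Ogn and Aspn were also higher than in R-WT mice without overlap, while the tendon sums of these groups overlapped. These sums hide opposite moves of single markers. Of the 6, 5 had a log2 change above 0 in P-KO (median 0.41) and 3 in R-Het mice (median 0.26). In R-Het mice Scx stood at 0.60 (SE 0.13) and Tnmd at -0.27 (SE 0.19). The part of tendon content in the values of the members was not tested.

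Finally, variation between mice of the same group was compared after the group means were removed. Among the 45 pairs of members, 0 correlated at an adjusted p under 0.05 over the 12 mice (exact permutation within groups) and 4 did before adjustment. Of these 4, the highest and lowest r of all pairs belonged to genes on different chromosomes. They were Bgn with Prelp (r = 0.84, permutation p = 0.0378, adjusted 0.425) and Omd with Prelp (r = -0.72, permutation p = 0.0332, adjusted 0.425). Without the 2 mice farthest from the median of Bgn in the first pair, and of Omd in the second, these r were 0.61 and -0.54. The neighbours Dcn and Lum had a Pearson r of 0.79 (permutation p = 0.0085, adjusted 0.382) and a Spearman rho of 0.82 (permutation p = 0.00926, adjusted 0.417), and r was 0.84 without the 2 mice farthest from the median of Dcn. Kera and Epyc, which lie next to each other, had an r of -0.72 (permutation p = 0.017, adjusted 0.382) and a rho of -0.66 (permutation p = 0.0625, adjusted 0.515). Their r was -0.77 without the 2 mice farthest from the median of Epyc, a choice that kept the mice farthest for Kera. The genes most like Epyc over the 12 mice were Cspp1 (r = 0.94, rho = 0.94), Cnep1r1 (r = 0.90, rho = 0.88), H2bc15 (r = 0.90, rho = 0.77), Vapb (r = 0.86, rho = 0.87) and Ikbip (r = 0.85, rho = 0.78). For the other members the most alike gene was Pon3 for Dcn (r = 0.96), Gramd1b for Bgn (r = 0.99), Coro2b for Fmod (r = 0.95), Ly6c1 for Lum (r = 0.95), Rarres2 for Ogn (r = 0.95), Cox7a1 for Omd (r = 0.93), Eda2r for Aspn (r = 0.93), Fbxo25 for Kera (r = 0.94) and Lmf2 for Prelp (r = 0.94). Each is the highest of 13059 values over mice that share library depth and tissue content, and is given as a description.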

How the data were processed

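Total RNA was sequenced on the Illumina platform from 12 individual mice, 3 a group. The authors deposited 1 FPKM value per RefSeq transcript and mouse (30411 transcripts). No header names the unit, and it was read from the values: they scaled with transcript length and depth and summed to 891329 to 1068933 per mouse. The submitters' processing notes name Bowtie 0.12.8 and mm10, and the program that made the values and the sequencing batches are not given in the sources used here. For each gene symbol the transcripts were summed (NCBI gene table of GRCm38.p6, 29831 transcripts, or GENCODE, 184), which gave 23715 genes. The genes that reached 1 FPKM in 3 or more mice were fitted as log2(FPKM + 1) with limma 3.58.1 in R 4.3.3 (mean-variance trend, no covariate, Benjamini-Hochberg over 13059 genes), in separate fits of 6 mice and 1 interaction fit of 12 mice. Fold changes are on this scale and understate those of low genes. The fit was tested on simulated data. Tables and figures were made in Python 3.11.15 with pandas 2.3.3, numpy 2.4.6, scipy 1.17.1 and matplotlib 3.10.9. Same-numbered mice did not vary together in every pair, so numbers were not used to pair mice. Named are the members, the other family genes that passed the filter, list genes called, and the genes most like each member. The members and all lists were chosen with earlier results of these data known. Protein sequence features were not analysed here.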

Additional observations from a re-analysis of the deposited data

Results flagged for a closer look

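Epyc differed between the sets: its log2 change was 1.57 larger in R-Het than in P-KO mice (SE 0.21), and the groups' mice did not overlap in the Runx2 set. It had been chosen with this contrast in view, so the value is a description and its call in the limma fit of the difference is no support. That call was lost in 6 of the 12 fits without 1 mouse and without the filter on low values.

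Bgn moved in opposite directions without overlap. All 3 P-KO mice were below all P-Ctrl mice and all 3 R-Het mice above all R-WT mice, and the log2 changes differed by 0.69 (SE 0.15). In the limma fit of this difference Bgn was not called with all mice and was called in 1 of the 12 fits without 1 mouse, that without R-WT mouse 2. No p-value is given, for the same reason, and the difference was not tested in other mice.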

How the results depend on the processing

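The log2 changes of the 10 members kept their sign under another pseudocount, no filter, sex as a covariate, the replicate block and 12 mice in 1 fit, and under rescaling other than Epyc in the Med23 set (0.05 to -0.01). The counts of genes called over the whole table did depend on the processing. Without the filter 1 gene was called in the Med23 set, 5 in the Runx2 set and 6 for the difference, and neither Prelp nor Epyc was among them. With all 12 mice in 1 fit 717 genes were called in the Med23 set, 95 in the Runx2 set and 8 between the controls. Adding sex as a covariate to that fit gave 149 in the Runx2 set and left Prelp uncalled in the Med23 set. Same-numbered mice correlated at 0.180, 0.259 and 0.0527 in the Med23 set and 0.00482, -0.0474 and -0.0836 in the Runx2 set. Mice with different numbers were not compared, so whether the numbers pair littermates is not known. The replicate block gave 273 calls in the Med23 set, 90 in the Runx2 set, 136 for the difference and 2 between the controls, with Kera called in place of Prelp in the Med23 set and Kera beside Epyc for the difference. Leaving out 1 mouse at a time gave 0 to 35 calls in the Med23 set, 34 to 169 in the Runx2 set, 2 to 164 for the difference and 4 to 10 between the controls. Prelp was called in none of these fits of the Med23 set, and Epyc was called in all 6 of the Runx2 set. Both genes were chosen with these comparisons in view, so their calls are a description and no support. For the difference, Bgn and Prelp were called beside Epyc without R-WT mouse 2. Podn, Podnl1, Chad, Twist2 and Pecam1 were not called in the Runx2 set under the block, and no list gene named above was called without the filter. Of the skeletal muscle markers, 9 were called lower in R-Het mice, 0 with all 12 mice in 1 fit, 4 with sex added to it, 2 under the block and 0 without the filter. The cause of these shifts was not tested. Counting the most abundant transcript alone moved the level of Aspn in R-WT mice to 863.2 FPKM.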

Other observations

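Dcn and Aspn were each deposited as 2 transcripts. The minor transcript of Dcn made up 3.05 ± 0.808% of the gene's FPKM in P-Ctrl, 1.45 ± 0.564% in P-KO, 1.46 ± 0.292% in R-WT and 2.23 ± 0.693% in R-Het mice (SD, n = 3). The minor transcript of Aspn made up 9.07 ± 3.496%, 6.41 ± 1.64%, 7.94 ± 0.604% and 8.69 ± 1.81% in the same order. Such shares are estimates of the authors' program and were not tested.

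Biglycan against decorin, the main class I proteoglycans, stood at 0.761 ± 0.159 in P-Ctrl, 0.921 ± 0.303 in P-KO, 0.593 ± 0.0876 in R-WT and 0.779 ± 0.141 in R-Het mice (ratio of FPKM, SD, n = 3). Mutant and control mice overlapped in both sets, and the highest single ratio, 1.27, belonged to the P-KO mouse with the lowest Dcn.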
